A study of Mus musculus with 2 samples.

Results

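The 39 Hox genes of the mouse were examined in H3K4me3 peak lists of lung group 2 innate lymphoid cells (ILC2s). They were chosen by name, as the protein-coding genes of GENCODE vM21 called Hoxa, Hoxb, Hoxc or Hoxd followed by a number, out of 22028 protein-coding genes. They stood in 4 clusters, with 11 genes in Hoxa on chromosome 6, 10 in Hoxb on chromosome 11, 9 in Hoxc on chromosome 15 and 9 in Hoxd on chromosome 2. A gene was counted as having a start peak when a listed peak lay within 1000 bp of any of its annotated transcript starts. Both groups were wild-type C57BL/6J mice of both sexes, analysed at 8 weeks of age. Their mothers, 6 to 8 weeks old, received alum intraperitoneally on days -21 and -7, without ovalbumin (OVA) for control mothers and with 100 µg OVA for asthmatic mothers. During pregnancy, between gestation days 4 and 17, control mothers were given PBS and asthmatic mothers 500 µg OVA by the nose every few days. About 3000 sorted ILC2s gave 1 library per group, from offspring of 1 pregnant dam each, so no value has a replicate and no test between the groups was possible.

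Hox genes encode homeodomain transcription factors that give cells of the embryo their position along the body axis. Within each cluster they are ordered from the 3′ end, with low paralogue numbers and anterior expression, to the 5′ end, with high numbers and posterior expression. Trithorax complexes, which write H3K4 methylation, and Polycomb complexes, some of which write H3K27 methylation, keep their active and silent states. H3K4me3 marks the starts of genes that are active or poised. Adult lung keeps a regional Hox code in its stromal cells, and blood progenitors use Hox genes of the A and B clusters.

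Peaks were listed for each library separately, 42126 in offspring of control mothers (the control list) and 51610 in offspring of asthmatic mothers (the asthmatic list). The number of reads behind each library was not used here. From the deposited fold and −log10 p of each peak, the fragments piled up at its summit could be derived. Over 9068 coding genes with a start peak in both lists, the median ratio of fragments, asthmatic over control, was 0.613 (quartiles 0.529 and 0.714). The start peaks of these genes thus had fewer derived fragments in the asthmatic list, but such counts are not scaled between the libraries. The median fold over all start peaks of coding genes was 6.65 in the control list and 5.85 in the asthmatic list. Of all coding genes, 50.9% had a start peak in the control list and 41.9% in the asthmatic list. Of 14 ILC2 markers, 11 did in the control list, 78.6% (95% exact Clopper-Pearson interval 49.2 to 95.3). In the asthmatic list 8 did, 57.1% (28.9 to 82.3), and both intervals cover the shares of all coding genes. These counts moved with the settings: the control count was 7 with starts at 500 bp, the asthmatic count 5 with the 5′ end of each gene alone, and both were 2 among the 10000 peaks of highest −log10 p. Gata3, the master factor of ILC2s, had one in the control list only, as did Il5 and Il7r, beside 9.71% of all coding genes. The control start peak of Gata3 was weak, with a −log10 q of 5.65, 18 fragments and a percentile of 24.7 in its list. B cell, macrophage, neutrophil and fibroblast markers (5, 7, 5 and 9 genes) had none in either list. Of T cell markers Tcf7 was marked, in the control list only, 1 of 7. Of mast cell and basophil markers Kit was marked in both lists, 1 of 5. Of endothelial markers Kdr was marked, in the control list only, 1 of 6. Epithelial markers had 3 of 7 in the control list (Epcam, Cdh1 and Foxj1) and 1 of 7 in the asthmatic list (Sftpb). The part of other cells in the Hox peaks was not tested.

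Hox genes were seldom marked in either list. In offspring of control mothers 8 of 39 Hox genes had a start peak, or 20.5% (95% exact Clopper-Pearson interval 9.30 to 36.5), where 50.9% of all coding genes had one. In offspring of asthmatic mothers 2 of 39 did, or 5.13% (0.627 to 17.3), where 41.9% of all coding genes did. The 2 genes marked in both lists were Hoxa4 and Hoxb4. The genes marked in the control list only included Hoxa7, Hoxb5, Hoxc6, Hoxc9 and Hoxd13 and were 6 of 39 in all, beside 9.71% of all coding genes. No Hox gene was marked in the asthmatic list only, beside 0.722% of all coding genes. The remaining 31 Hox genes had no start peak in either list. The intervals cover counting error only, and fewer marked cells cannot be told apart from less mark per cell.

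The sequences under 5 of these peaks are shown because they are the strongest Hox start peak of each cluster, with Hoxa4 added after its values were seen because it was listed in both groups. Each is given 5′ to 3′ on the strand of its gene, from the GRCm38 reference, in lower case with CpG dinucleotides in capitals. Bases that GENCODE annotates as untranslated exon were left out, and stretches over 250 bases were trimmed around the summit.
Hoxa7, chr6:52221366-52221546, minus strand, control peak: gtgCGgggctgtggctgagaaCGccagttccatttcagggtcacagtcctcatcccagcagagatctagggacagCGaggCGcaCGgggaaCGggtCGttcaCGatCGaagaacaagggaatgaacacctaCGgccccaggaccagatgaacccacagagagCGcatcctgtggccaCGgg
Hoxa4, chr6:52192122-52192273, minus strand, bases in the peaks of both lists: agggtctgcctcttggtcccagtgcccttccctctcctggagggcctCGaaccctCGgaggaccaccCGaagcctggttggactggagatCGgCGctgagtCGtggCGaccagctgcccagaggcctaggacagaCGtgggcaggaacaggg
Hoxb4, chr11:96318915-96319092, plus strand, bases in the peaks of both lists: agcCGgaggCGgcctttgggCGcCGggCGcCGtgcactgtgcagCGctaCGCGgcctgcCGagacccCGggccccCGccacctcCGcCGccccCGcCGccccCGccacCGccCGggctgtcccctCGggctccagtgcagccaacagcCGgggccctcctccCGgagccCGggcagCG
Hoxc6, chr15:102999297-102999546, plus strand, control peak: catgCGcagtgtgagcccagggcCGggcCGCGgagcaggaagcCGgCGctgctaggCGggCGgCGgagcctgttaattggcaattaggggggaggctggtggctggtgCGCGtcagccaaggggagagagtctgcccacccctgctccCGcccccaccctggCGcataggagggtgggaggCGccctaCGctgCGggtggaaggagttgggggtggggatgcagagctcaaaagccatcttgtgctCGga
Hoxd13, chr2:74668265-74668514, plus strand, control peak: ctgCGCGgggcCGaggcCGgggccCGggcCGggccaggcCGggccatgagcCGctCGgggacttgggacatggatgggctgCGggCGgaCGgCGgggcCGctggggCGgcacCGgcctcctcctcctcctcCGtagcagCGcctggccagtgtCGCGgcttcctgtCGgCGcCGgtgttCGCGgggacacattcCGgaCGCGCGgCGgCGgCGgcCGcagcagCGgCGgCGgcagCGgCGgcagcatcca
The 178 bases of Hoxb4 held 24 CpG dinucleotides and 82.0% G or C, and they lay in a coding exon. The 250 bases of Hoxd13 held 38 CpG and 79.6% G or C, and covered the annotated start. The 152 bases of Hoxa4 held 8 CpG and 66.4% G or C, the 181 of Hoxa7 12 CpG and 60.8%, and the 250 of Hoxc6 17 CpG and 68.8%. The stretches thus ranged widely in CpG content, and the pair found in both lists was not alike in it.

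The central paralogue groups 4 to 8 held most of the marked genes. Of 15 such genes, 5 had a start peak in the control list, 33.3% (11.8 to 61.6), and 2 in the asthmatic list, 13.3% (1.66 to 40.5). The control interval of these genes overlapped that of the posterior genes, so no order of the groups can be read from these counts.

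Hoxa4, a central gene expressed in lung mesenchyme and in blood progenitors, had equal fragment counts in the lists. In offspring of control mothers its peak was 190 bp wide, the smallest width in that list, with a −log10 q (q being the adjusted p-value of the peak against its background) of 5.39, a fold over that background of 4.95 and 13 derived fragments at the summit. In offspring of asthmatic mothers its peak, chr6:52192122-52192278, was 157 bp wide, with a −log10 q of 6.00, a fold of 5.46 and 13 fragments. Both peaks lay upstream of the start, with summits 426 bp and 415 bp from it, in introns of transcripts of Hoxa3 and of the noncoding gene Hoxaas3. They shared 152 bp. The ratio of fragments was 1.00, above the upper quartile of all coding genes.

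Hoxb4, which promotes self-renewal of blood progenitors, had the most fragments of the Hox start peaks in the control list. Its control peak at chr11:96318855-96319306 was 452 bp wide, with a −log10 q of 6.28, a fold of 4.79 and 17 fragments. In offspring of asthmatic mothers the peak was 178 bp wide and lay wholly inside the control peak, with a −log10 q of 3.62, a fold of 4.29 and 10 fragments. The fragment ratio of 0.588 lay between the quartiles of all coding genes. Summits were 718 bp and 754 bp downstream of the start, both in a coding exon. With 1 library per group, the difference between 17 and 10 fragments has no replicate check.

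Of the other central genes, 3 were marked, in the control list only, and 10 had no start peak in either list. Hoxc6, a gene of trunk patterning, had the strongest Hox peak, at chr15:102999282-102999582, 301 bp wide with a −log10 q of 7.94, a fold of 6.02 and 16 fragments. Its edge was 947 bp and its summit 1107 bp upstream of the nearest Hoxc6 start, in an intron of longer Hoxc6 and Hoxc5 transcripts, so it was the member closest to the limit of 1000 bp. Hoxa7, a central gene of the A cluster, had a peak at chr6:52221366-52221624 of 259 bp with a −log10 q of 6.74, a fold of 5.45 and 15 fragments. Its summit was 373 bp downstream of the most upstream Hoxa7 start. Hoxb5, a gene of lung airway and mesenchyme development, had a peak at chr11:96303816-96304008 of 193 bp with a −log10 q of 4.14, a fold of 4.29 and 12 fragments. That peak lay over an exon of Hoxb5 and an intron of its antisense gene Hoxb5os, and peaks carry no strand. Among Hox genes just outside the limit, Hoxb3 was nearest, 4020 bp from the Hoxb4 peak of the control list and 4234 bp from that of the asthmatic list.

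Of the posterior groups 9 to 13, 2 of 16 genes were marked in the control list, 12.5% (1.55 to 38.3), and 0 of 16 in the asthmatic list, which allows up to 20.6%. Hoxd13, which patterns digits and the genital tract, had a control peak at chr2:74668265-74668588 of 324 bp, with a −log10 q of 5.39, a fold of 4.95 and 13 fragments. It was the only Hox peak that covered an annotated start of a coding gene. Its fold and −log10 q equalled those of Hoxa4 in the same list, since both rested on 13 fragments over the smallest background. Hoxc9, a gene of thoracic patterning, had a control peak at chr15:102977243-102977491 of 249 bp with a −log10 q of 3.74, the lowest of the Hox peaks in the control list, a fold of 4.17 and 11 fragments.

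**Figure D1:**
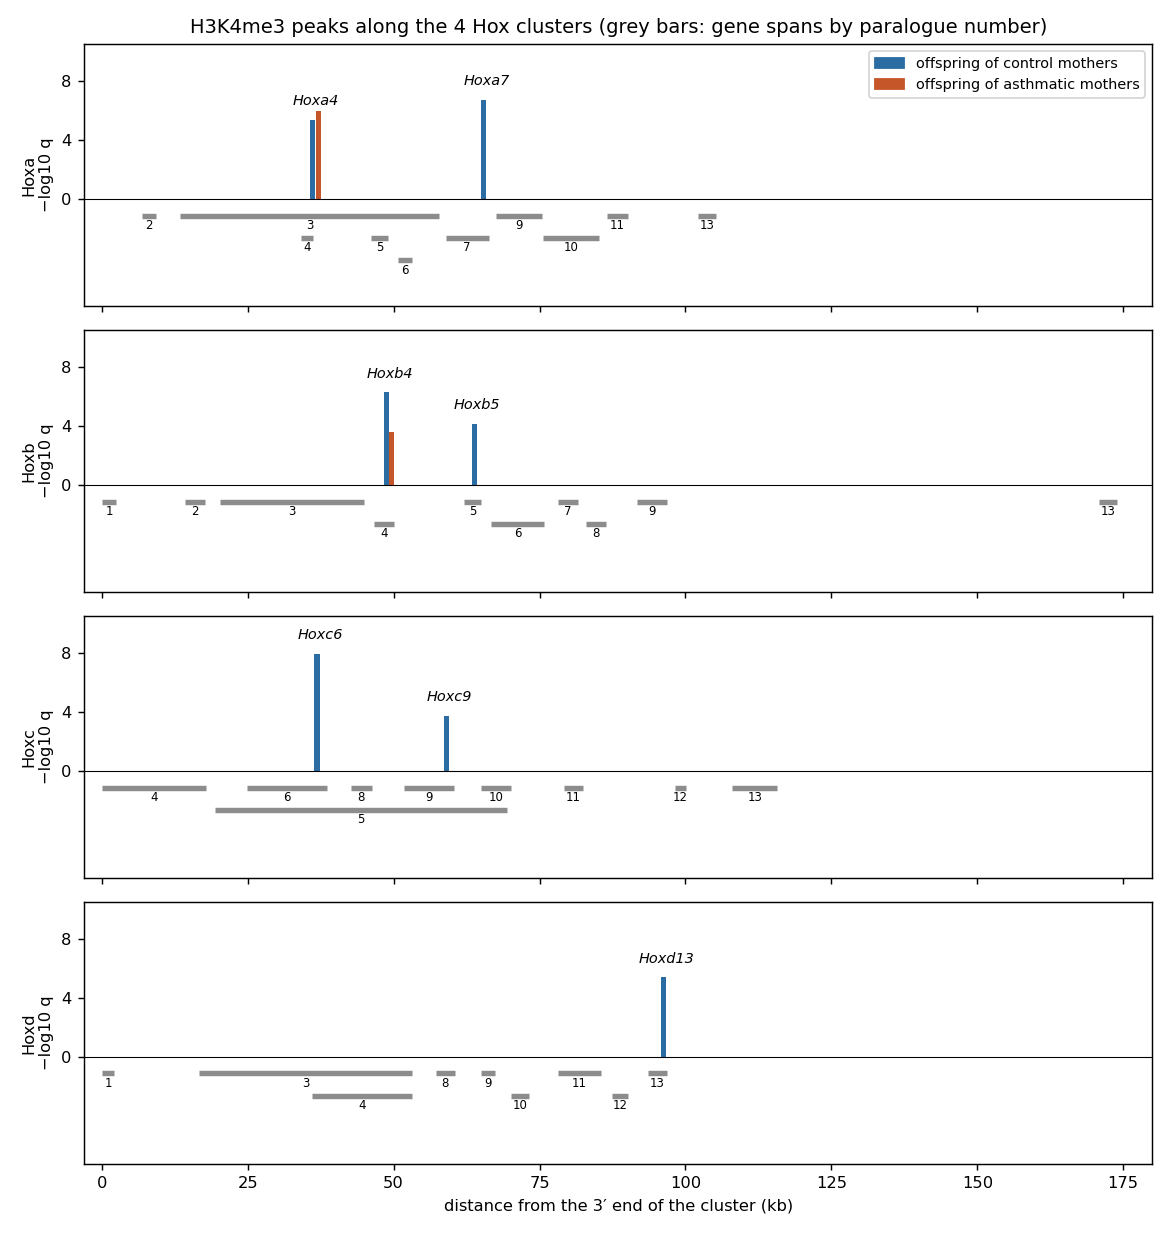
Height (−log10 q) of the H3K4me3 peaks along each Hox cluster, in kb from the 3′ end of the cluster, for offspring of control mothers (blue) and of asthmatic mothers (orange). Grey bars are gene spans with the paralogue number beneath. The control peaks drawn are those of Hoxa4, Hoxa7, Hoxb4, Hoxb5, Hoxc6, Hoxc9 and Hoxd13, and the 2 asthmatic peaks stand next to the control peaks of Hoxa4 and Hoxb4.

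No peak of either list lay inside a cluster away from a Hox start. The control list had 8 peaks in 491.8 kb of Hox clusters, 1.63 per 100 kb beside 1.54 over the 21 assembled chromosomes, and they covered 0.452% of the bases beside 0.593%. The asthmatic list had 2 peaks, 0.407 per 100 kb beside 1.89, and they covered 0.0681% beside 0.562%. The number of control peaks was thus near that of the chromosomes as a whole, although the clusters had 24.4 CpG per kb beside 8.26 and 18.2% repeat-masked bases beside 36.4%. By cluster, the control list covered 0.713% of Hoxa, 0.371% of Hoxb, 0.475% of Hoxc and 0.288% of Hoxd. The asthmatic list covered 0.149% of Hoxa, 0.102% of Hoxb and none of Hoxc and Hoxd. None of the 75-base stretches around these 10 summits had a copy elsewhere on the assembled chromosomes.

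The surroundings of Hoxc had few peaks. Over the 4 clusters, the 100 kb on each side held 6 control and 11 asthmatic peaks, of which 3 and 6 had summits copied elsewhere. None of either list lay in the 100 kb on each side of the Hoxc cluster. In the asthmatic list, which had no peak inside it either, the 9 Hoxc genes were 108 to 221 kb from the nearest peak. The nearest coding genes on its 2 sides, Calcoco1 at 198.9 kb and Smug1 at 116.4 kb, each had a start peak in the control list, with −log10 q of 10.71 and 16.75, and none in the asthmatic list, beside 9.71% of all coding genes marked in the control list only. Hoxd was flanked by Evx2, a homeobox gene with no start peak in either list, and by Mtx2, a mitochondrial import gene with a −log10 q of 21.74 and 6.81. Hoxa was flanked by the homeobox gene Evx1, with none, and by Skap2, a signalling adaptor gene, with 13.41 and 8.65. Hoxb was flanked by Ttll6, with none, and by Skap1, a T cell adaptor gene, with 9.27 and 8.02. For these 3 clusters the single nearest coding gene on the 3′ side was thus marked in both lists and that on the 5′ side in neither. This held for the nearest gene only, since Lnpk, farther out on the 5′ side of Hoxd, had a start peak of −log10 q 22.63 and 9.59.

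Few noncoding genes of the clusters had peaks, as was the case for noncoding genes in general. Of 43 such genes, 2 were near a control peak, where 8.18% of all 33508 noncoding genes were, and none was near an asthmatic peak, where 7.27% were. All 7 miRNA genes, among them those of the miR-10 and miR-196 families, had no peak within 1000 bp of their start in either list, where 9.92% and 9.06% of all 2207 miRNA genes had one, and nothing particular to these few genes can be read from that. Hotair, the noncoding gene of Hoxc, and Haglr of Hoxd had none. The other 3 coding models inside the clusters had none either.

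Hox start peaks were among the weaker ones of the control list. Their median −log10 q was 5.39, beside 12.04 over all 12774 start peaks of coding genes, their median width 280 bp beside 472 bp and their median fragments 13 beside 24. Their percentiles by −log10 q among all peaks of the list ran from 3.3 for Hoxc9 to 51.2 for Hoxc6. In the asthmatic list the medians of Hoxa4 and Hoxb4 were 4.81 beside 7.52 for −log10 q, 167.5 bp beside 320 bp for width and 11.5 beside 16 for fragments, with percentiles of 34.1 and 4.3. No Hox peak had a neighbour within 1000 bp to join to a wider domain.

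**Figure D2:**
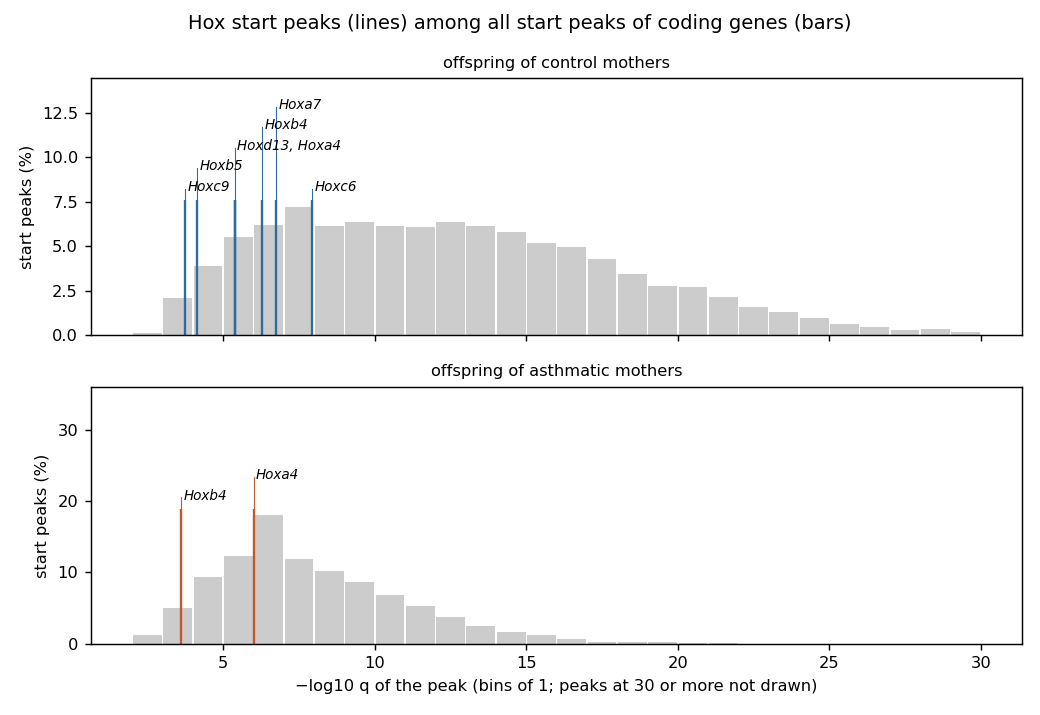
Distribution of −log10 q over all start peaks of coding genes (grey bars, percent of start peaks per bin of 1) with the Hox start peaks as lines, for each list. The control lines lie between 3.74 and 7.94, below the median of 12.04, and the 2 asthmatic lines at 3.62 and 6.00, below the median of 7.52.

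The place of Hox peaks relative to starts of coding genes was set beside that of other peaks. Starts of noncoding genes were not counted. In the control list 1 of 8 Hox peaks covered a start, 12.5% (0.316 to 52.7), beside 64.7% of all start peaks and 40.0% of the 3013 other start peaks with a −log10 q in the same range. The median distance from the peak edge to the start was 267 bp for Hox peaks and 41.0 bp for those other peaks. In the asthmatic list 0 of 2 Hox peaks covered a start (0 to 84.2%), beside 35.2% of 3032 peaks of like −log10 q. Both intervals cover the share of the peaks of like −log10 q, so nothing particular to Hox peaks can be read from them.

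Whether the 6 control-only genes differ between the groups cannot be read from the lists alone. Of control start peaks with a −log10 q between 3.74 and 7.94, 30.8% overlapped a peak of the asthmatic list, and 2 of 8 Hox peaks did, 25.0% (3.19 to 65.1), which is close to that background. Over all coding genes with a control start peak, 80.9% were also marked in the asthmatic list. In the other direction, 92.1% of asthmatic start peaks of like −log10 q overlapped a control peak, and so did both Hox peaks. At the smallest background the weakest listed peaks had 9 fragments in the control list and 8 in the asthmatic list. The 6 genes not in the asthmatic list had 11 to 16 fragments in the control list. Multiplied by the median ratio of 0.613 these are 6.74 to 9.81, at or above 8 for 2 of the 6, Hoxc6 and Hoxa7, and these counts carry counting error. This product does not decide whether a gene is listed: Hoxa4 and Hoxd13 both had 13 fragments in the control list and a product of 7.97, and Hoxa4 was listed in the asthmatic list with 13 fragments while Hoxd13 was not. The smallest background at a summit was 1.83 derived fragments in the control list and 1.57 in the asthmatic list. Divided by the smallest peak widths, 190 and 156 bp, taken as the fragment lengths, these are 96.1 and 100.4 fragments per 10 kb. What keeps a gene out of the asthmatic list was not tested.

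**Figure D3:**
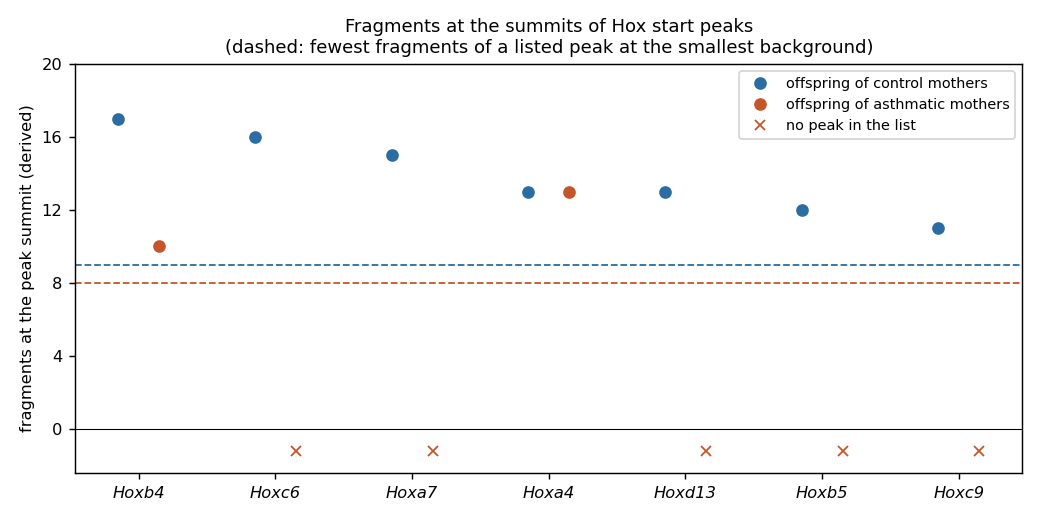
Fragments at the peak summit, derived from fold and −log10 p, for the Hox genes named above with a start peak in either list. Crosses below 0 mark genes with no peak in the asthmatic list, whose fragments are unknown, and dashed lines mark the fewest fragments of a listed peak at the smallest background, 9 for control (blue) and 8 for asthmatic (orange). Hoxa4 has 13 in both lists, and Hoxb4 17 and 10.

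The CpG content around the principal start overlapped between marked and unmarked Hox genes. The observed to expected CpG ratio in 1001 bp around that start had a median of 0.75 over the 8 marked Hox genes (0.48 to 0.92). It was 0.69 over the 31 others (0.26 to 1.00). That window did not reach the listed peaks of Hoxa7, Hoxb4 and Hoxc6, whose control peaks had ratios of 0.85, 0.81 and 0.58. Over all coding genes the medians were 0.75 with a start peak in either list and 0.24 without. Unmarked Hox genes were therefore as CpG-rich as many marked genes elsewhere. Hoxa5, a gene of lung and diaphragm development, had the highest ratio of the 39 Hox genes, 1.00, and no start peak in either list, and Hoxa13, at 0.93, had none either. Of the 2 genes marked in both lists, Hoxa4 had a ratio of 0.92 and Hoxb4 of 0.49. Between the quartiles of the Hox ratios, 0.51 and 0.80, 74.8% of 7233 coding genes had a start peak in the control list and 58.9% in the asthmatic list. Of the 18 Hox genes in that range, 2 did in the control list, 11.1% (1.38 to 34.7), and 0 in the asthmatic list, which allows up to 18.5%. Those intervals do not reach the values of all coding genes. Hoxa4 (0.92), Hoxd13 (0.91), Hoxb5 (0.88) and Hoxa7 (0.81) were marked in the control list above that range. Hoxb4 (0.49) and Hoxc6 (0.48) were marked below it. Of 15693 other coding genes with at least the lowest Hox ratio, 68.1% had a start peak in the control list and 56.2% in the asthmatic list. The shares of the 39 Hox genes were 20.5% and 5.13%.

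**Figure D4:**
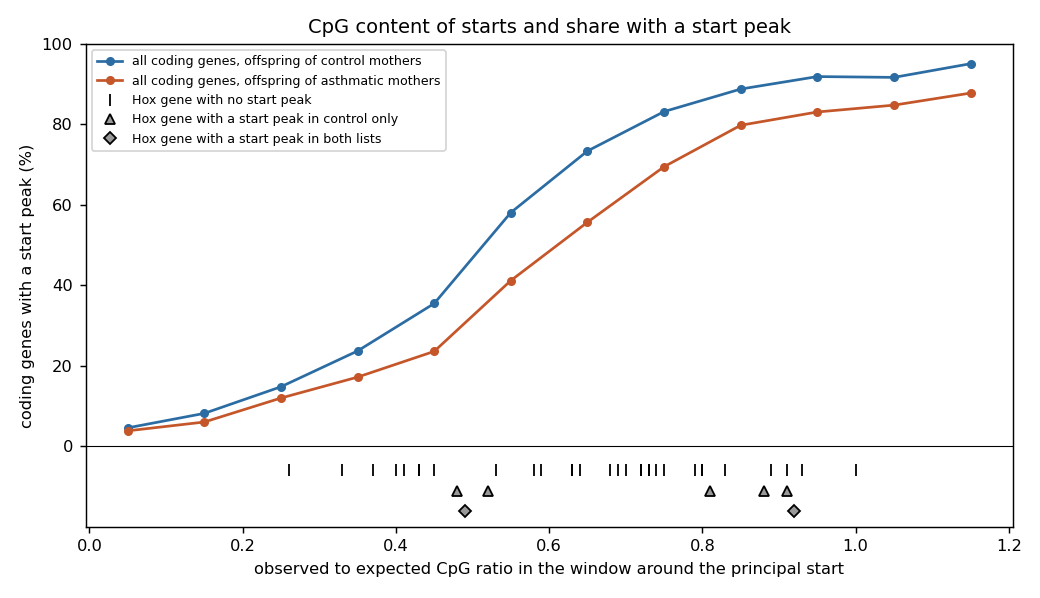
Share of coding genes with a start peak (y axis, percent) by observed to expected CpG ratio around the principal start (x axis, bins of 0.1) for both lists, with the ratios of Hox genes marked below 0 by whether it had a start peak. In all coding genes the control share rises from 4.59% in the lowest bin to 95.1% in the highest, while unmarked Hox genes spread from 0.26 to 1.00.

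Sequence motifs of the Hox and TALE proteins were searched on both strands in 1001 bp around the principal start. The PBX-HOX site TGATTNAT was found in 5 of 39 Hox windows, 12.8%, beside 8.49% of 21938 coding windows. The homeodomain core TAATTA was found in 5 of 39, 12.8%, beside 14.6%, and the MEIS site TGACAG in 10 of 39, 25.6%, beside 46.2%. None of the 5 stretches printed above held any of the 3.

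The genes of proteins that act with or on Hox genes were set beside the 50.9% (control) and 41.9% (asthmatic) of all coding genes with a start peak. All 9 TALE cofactors, the PBX, MEIS and PKNOX partners of Hox proteins, had a start peak in the control list, 100% (66.4 to 100), and 5 of 9 in the asthmatic list, 55.6% (21.2 to 86.3), an interval that covers the share of all coding genes. In the control list the highest −log10 q were those of Meis3 (16.29 in control and 6.62 in asthmatic), Pknox2 (11.38, none), Pbx2 (11.33 and 4.44) and Pbx4 (10.71, none). In the asthmatic list Pbx3 was highest, at 10.0, beside 9.21 in the control list. Meis1, the partner of HOXA9 in blood progenitors, had 5.39 and none. The writers and silencers of Hox chromatin were marked almost throughout.

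Of 16 trithorax and elongation genes, 15 were marked in the control list, 93.8% (69.8 to 99.8), and 14 in the asthmatic list, 87.5% (61.7 to 98.4). The highest in the control list were Mllt10 (23.84 and 10.42), Rbbp5 (22.83 and 9.59), Mllt1 (18.86 and 7.74) and Psip1 (17.28 and 13.61). In the asthmatic list Wdr5 was highest, at 15.23, above its control value of 11.56. Kdm6b, an H3K27 demethylase, had no start peak in either list. Of 26 Polycomb genes, 26 and 25 were marked, led in the control list by Phc3 (25.15 and 18.69), Mtf2 (23.18 and 7.52), Pcgf3 (21.53 and 6.00) and Rnf2 (18.84 and 13.16). Of 12 genes of retinoic acid signalling, which induces 3′ Hox genes, 7 and 5 were marked, 58.3% and 41.7%, which is near the share of all coding genes, led in the control list by Rxrg (20.27 and 9.59), Rarg (11.70 and 11.61), Rara (11.55 and 11.95) and Rxra (10.28 and 7.64).

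The homeobox relatives of the clusters were also sparsely marked. Of 13 ParaHox and related genes, 1 was marked in the control list, 7.69% (0.195 to 36.0), and 0 in the asthmatic list, which allows up to 24.7%. The marked gene was Gbx1, with a −log10 q of 5.39. Of 80 Sox, Pax, Lhx and Fox genes, other developmental factors, 27 were marked in the control list, 33.8% (23.6 to 45.2), and 18 in the asthmatic list, 22.5% (13.9 to 33.2). The intervals of these genes and of Hox genes overlapped in both lists. Of the 27, 16 were also in the asthmatic list, 59.3% (38.8 to 77.6), beside 2 of 8 Hox genes, 25.0% (3.19 to 65.1).

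**Figure D5:**
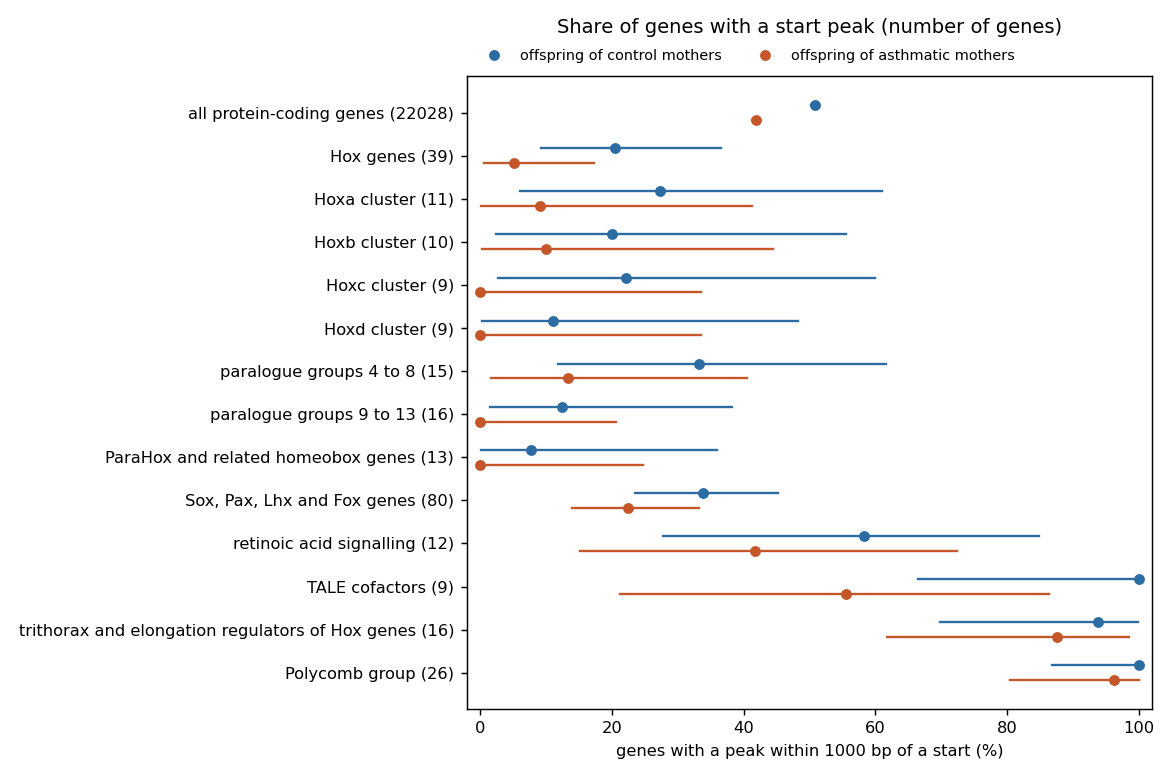
Share of genes with a start peak in offspring of control mothers (blue) and of asthmatic mothers (orange), with exact 95% intervals of counting error and the number of genes in brackets. Hox genes stand at 20.5% and 5.13%, below all coding genes at 50.9% and 41.9%, and the Polycomb group at 100% and 96.2%.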

How the data were processed

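H3K4me3 was profiled by CATCH-seq, a carrier-assisted native ChIP-seq with MNase, in 1 library per group. Per the paper's methods and the submitters' processing notes, reads were trimmed (Trim Galore, cutadapt), aligned to mm10 (GRCm38) with Bowtie2 and freed of duplicates. The peak caller, control and threshold are not given in the sources used here. The reporting summary of the study states that its ChIP-seq had no peak calling, although each library has a deposited list, so how the listed peaks were made is unknown. The deposited lists hold for each peak a score, a fold (a ratio to background) and the −log10 of a p-value and of a q-value. These are not scaled between lists.

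Transcript starts came from GENCODE vM21. Peaks overlapped when sharing at least 1 bp, and peaks at most 1000 bp apart were joined. Fragments were derived from the fold and p under a Poisson model with 1 added to signal and background, which assumes calling without a control and fitted within 0.01. The Hox genes with a start peak, except 1 that is not reported here, the nearest coding gene on each side and at most 4 genes of highest −log10 q per companion list are named, and Meis1, Pbx3, Wdr5, Lnpk, Hoxa5, Hoxa13, Hotair and Haglr besides, after their values were seen. The members and lists were chosen with earlier results of these data known. Scripts were tested on simulated data. Python 3.11.15, pandas 2.3.3, numpy 2.4.6, scipy 1.17.1 and matplotlib 3.10.9 were used. Coverage tracks and other assays of the study were not used here.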

Additional observations from a re-analysis of the deposited data

How the results depend on the processing

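No paired analysis was possible because each group had a single library. The 8 control and 2 asthmatic Hox genes with a start peak became 5 and 1 at a −log10 q of at least 5, as did the peaks inside the clusters, which then covered 1481 and 157 bases in place of 2225 and 335. Among the 10000 peaks of highest −log10 p in each list, none lay at a Hox start or in a cluster, with 0 bases covered, and the companion lists fell from 58 to 28 and from 49 to 10 genes. With starts taken at 500 bp, 6 and 1 Hox genes were marked. Of the 2 shared peaks 1 remained with an overlap of at least 50% of both peaks, Hoxa4, and 1 at a −log10 q of at least 5, also Hoxa4. The median percentile of the Hox peaks, 21.1 and 19.2 by −log10 q, was 42.9 and 39.5 by fold and 32.5 and 12.1 by domain width. The other 31 of 54 alternatives for these results stayed within 1.5 times. For the single companion and marker lists, 24 of 140 alternatives moved the count by more than that. Summits of 10 to 17 fragments lie close to the weakest listed, so absence from a list is not absence of the mark.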
